A study of Danio rerio with 2 samples.

Results

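The cells described here are zebrafish lateral line supporting cells, chosen by the measured levels of 3 genes in each cell barcode. The rule asked for 300 or more irg1l UMIs (unique molecular identifiers, each standing for 1 captured transcript) per 1000000 UMIs of the barcode, 500 or more stm UMIs on the same scale, and no otogl UMI. After barcodes with fewer than 500 genes or over 20% mitochondrial UMIs were set aside, 245 of 17385 barcodes of the control library and 254 of 8322 of the mutant library met it, 499 of 25707 in all. Their working name was lateral line supporting and mantle cells. Mantle markers summed to low levels and few of the cells held tspan1, as the values given with the markers show. The cells are therefore called irg1l/stm cells. Because the levels of irg1l, stm and otogl chose the cells, these 3 genes are given only as a description.

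Lateral line neuromasts are small sensory organs on the fish skin. Their hair cells sit in the centre, supporting cells lie beneath and around them, and mantle cells form the outer rim. Supporting cells divide or convert to replace lost hair cells throughout life, and Notch signalling is known to hold most of them in the supporting state. stm encodes Starmaker, a matrix protein known from the otoliths of the inner ear. irg1l belongs to the aconitate decarboxylase family, and otogl encodes an otogelin-like protein of the matrix that covers inner ear epithelia.

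The study asked what loss of hsd17b7, an enzyme of cholesterol synthesis, does to sensory hair cells. GFP-positive cells of trypsin-dissociated Tg(Brn3c:mGFP) larvae at 4 dpf were sorted and sequenced by a 10x Genomics 3′ assay. There was 1 library labelled wild-type, called control here, and 1 labelled hsd17b7-KO, called mutant. Both carried the mGFP reporter, which the Brn3c promoter drives in hair cells and some neurons, and neither received a chemical treatment. The study's mutant line carries a frameshift deletion in hsd17b7, and the number of larvae pooled per library is not given in the sources used here. With 1 library per genotype there is no test of genotype. Genotype, library and Cell Ranger version (7.1.0 in the control and 9.0.1 in the mutant) cannot be told apart. All ranges in brackets are exact 95% intervals that cover counting error only.

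The libraries held 180590990 UMIs in 19270 barcodes (control) and 81920586 UMIs in 10119 barcodes (mutant), and 0 of the barcodes of irg1l/stm cells were shared between them. The irg1l/stm cells were deeper than the average kept cell. Their UMIs per cell ran from 801 through a median of 11613 to 64340 in the control library and from 738 through 9511 to 52388 in the mutant library, against medians of 7491 and 6206 over all kept cells. Median mitochondrial shares were 1.46% and 1.16%. The control library carried red blood cell RNA that the mutant library nearly lacked. Globin genes took 13.0% of the UMIs of its kept cells and 1.56% of those of its irg1l/stm cells, against 0.00985% and 0.000173% in the mutant library.

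irg1l/stm cells made up 1.41% [1.24, 1.60] of kept cells in the control library and 3.05% [2.69, 3.44] in the mutant library. Among barcodes with under 10% globin UMIs the shares were 2.16% [1.89, 2.45] and 3.05% [2.69, 3.44], so the gap was smaller once blood cells were out of the control denominator. The sort on mGFP sets these shares as well, and its part in them was not tested.

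Within the rule, irg1l per cell had a median of 1249 per 1000000 UMIs and a highest value of 6360 in the control library, and 2897 and 9407 in the mutant library. stm had medians of 6936 and 3986 and highest values of 51417 and 71708 on the same scale. The members nearest the thresholds had 301 (control) and 306 (mutant) irg1l and 505 and 508 stm, and the nearest cells outside had 296 and 289 irg1l or 487 and 486 stm. Single molecules decided some cells, since 27 control and 9 mutant members rested on 1 irg1l UMI. The stm threshold left out 141 control and 131 mutant cells that passed on irg1l and otogl, of which 103 and 74 had no stm UMI. The irg1l threshold left out 640 control and 100 mutant cells that passed on stm and otogl.

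**Figure D1:**
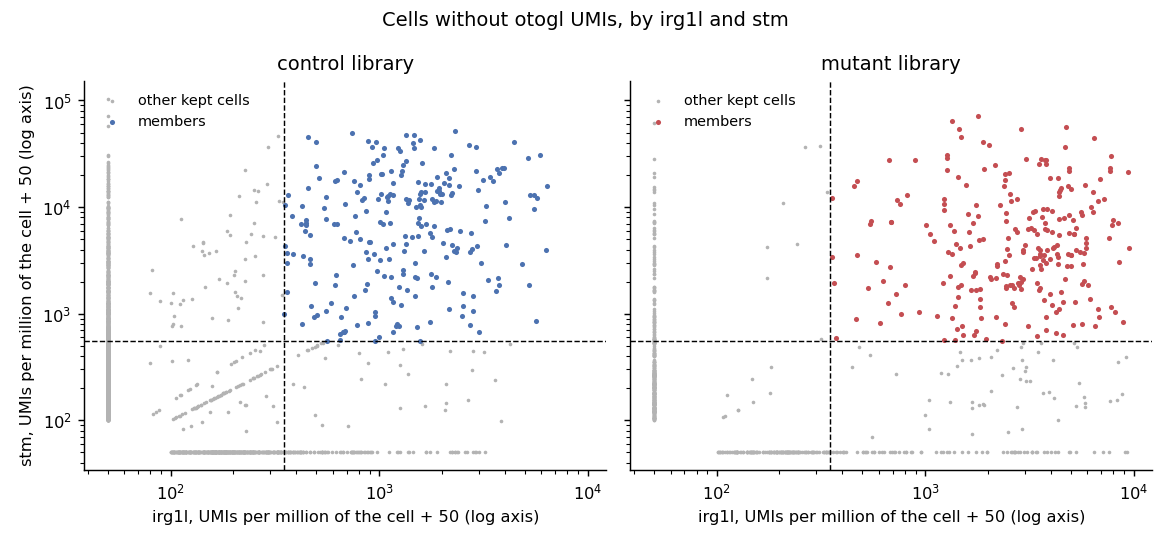
Each point is a kept cell without otogl UMIs and with at least 50 per 1000000 UMIs of irg1l or stm; axes give irg1l and stm on that scale plus 50 on log axes, dashed lines are the thresholds of 300 and 500, and coloured points are the 245 control and 254 mutant irg1l/stm cells. Grey points to the right of the vertical line and below the horizontal line are the 141 and 131 cells that had irg1l but too little stm.

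The genes that led the irg1l/stm cells were mostly known by clone names, and they separated these cells from the inner ear supporting cells that share stm with them. The 15 with the highest ratio to all other kept cells, taken as the smaller ratio of both libraries, were si:dkeyp-110c7.4, CABZ01067232.1, cbln20, zgc:174917, si:rp71-1c10.11, si:dkey-205h13.2, si:dkey-33m11.8, zgc:165423, cbln18, moxd1l, si:dkey-259j3.5, si:dkey-4p15.5, si:ch211-153b23.3, AL954146.1 and si:cabz01007794.1. cbln20 and cbln18 are of the cerebellin family of secreted proteins, and moxd1l is of the family of copper-dependent monooxygenases. si:dkey-4p15.5 stood at 3755 (control) and 9865 (mutant) UMIs per 1000000 summed UMIs of the cells (CPM), 222-fold and 58.3-fold over all other kept cells. cbln20 stood at 747 and 2714 CPM, 146-fold and 68.9-fold over the other cells. From here on a pair of levels gives the control library first and the mutant library second.

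Inner ear supporting cells, taken as cells with stm and otogl and with irg1l below its threshold (189 control and 70 mutant cells), held 14.9 and 9.77 CPM of si:dkey-4p15.5 and 36.6 and 60.6 CPM of cbln20. When barcodes with 10% globin or more were left out of the other kept cells, 13 of the 15 leading genes were shared with the list above. Since irg1l and stm chose the cells, these ratios are a description and no test.

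**Figure D2:**
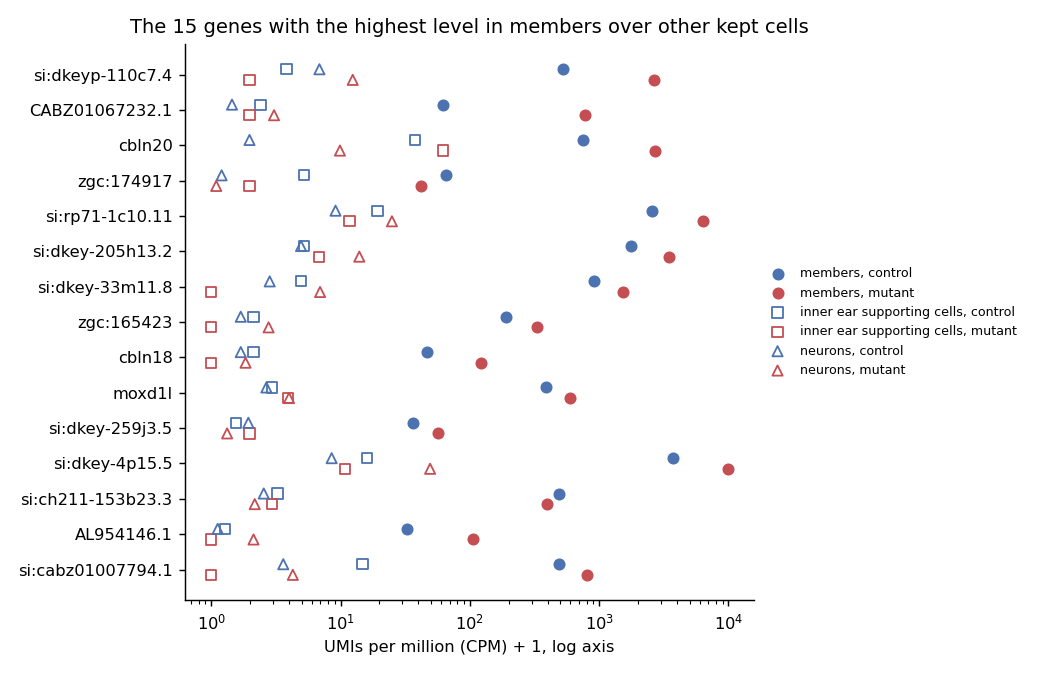
Summed level (CPM plus 1, log axis) of the 15 leading genes in irg1l/stm cells (filled circles), inner ear supporting cells (open squares) and neurons (open triangles) of the control (blue) and mutant (red) libraries. For every gene the irg1l/stm cells of both libraries lie right of the other cells.

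Most single irg1l/stm cells held these markers. si:dkey-4p15.5 had a UMI in 78.8% and 93.7% of irg1l/stm cells and in 4.80% and 5.81% of neurons (cells with 300 or more elavl3 per 1000000 UMIs), whose median depths were 6870 and 5384 UMIs against 11613 and 9511. Thinned to 2000 UMIs per cell, which left 213 control and 231 mutant irg1l/stm cells, the shares were 78.4% and 93.1%, and 1.65% and 2.32% in neurons. cbln20 had a UMI in 73.5% and 94.5% of the cells, or 57.3% and 87.9% after thinning, against 0.672% and 1.42% of neurons. In inner ear supporting cells the cbln20 shares were higher than in neurons, at 24.3% and 25.7%, or 8.15% and 9.09% thinned. Those of si:dkey-4p15.5 were 9.52% and 8.57% there, or 2.17% and 3.03% thinned. Both markers lay far above the free RNA level that neurons show.

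The wider set of epithelial and placodal genes was present, and mantle markers were low. epcam, an epithelial adhesion molecule, stood at 3350.2 and 3188 CPM, and cldnb, a claudin of the lateral line primordium, at 1998 and 2045 CPM. eya1, a placodal transcription cofactor, stood at 837 and 1168 CPM. Of the 5 mantle markers, tspan1 summed to 52 and 16 UMIs over all irg1l/stm cells, ovgp1 to 8 and 0, sfrp1a to 28 and 1, alpl to 16 and 16, and fat1b, an atypical cadherin, to 190 and 86. The list summed to 86.1 and 41.2 CPM, and tspan1 had a UMI in 6.94% and 1.18% of the cells. tspan1 and fat1b nevertheless lay above their levels in neurons: tspan1 stood at 15.23 and 5.54 CPM against 0.815 and 0.0468 CPM there, and fat1b at 55.6 and 29.8 CPM against 4.197 and 0.843 CPM. The cells left out for low stm held 9 and 0 tspan1 UMIs.

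Genes of other cell types were present too, beside the blood genes of the control library. The 15 listed neuron genes summed to 268 and 476 CPM in irg1l/stm cells, the hair cell genes to 4574 and 3106 CPM, and the liver and pancreas genes to 1345 and 735 CPM. Most of these UMIs lay in a minority of the cells, as the clusters show.

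The irg1l/stm cells were not uniform. Clustering on 1500 variable genes scaled within each library gave 5 clusters, each with cells of both libraries, and the genes that lead a cluster are its description. Cluster 1 (82 control and 112 mutant cells) was led by soul5, zgc:165423, zgc:174917 and si:dkeyp-110c7.4. It held stm at 19749 and 11177 CPM and cbln20 at 1272 and 4129 CPM, the highest of the 5 clusters in both libraries. ptgs2b, the prostaglandin synthase Cox2, and il11b, an interleukin 11 ligand, were among its 10 leading genes, with ptgs2b at 203 and 674 CPM.

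Cluster 2 (75 and 63 cells) was led by pcdh12, a protocadherin, and its 10 leading genes took in cxcr4b, a chemokine receptor of the migrating primordium, and krt15, a keratin. krt15 stood at 96.9 and 256 CPM there, against 15.9 and 33.6 CPM in cluster 1. The eya1 relative eya2 stood at 967 and 359 CPM in cluster 2 and at 206 and 91.9 CPM in cluster 1. The mantle list was highest in this cluster in the control library, at 189 and 86.0 CPM in sum against 29.3 and 15.9 CPM in cluster 1. Its tspan1 stood at 38.9 and 3.13 CPM and its fat1b at 124 and 62.5 CPM, against 1.22 and 0 CPM and 25.6 and 15.03 CPM in cluster 1. In the mutant library cluster 5 held more of the list, at 129 CPM, and 14 of the 16 tspan1 UMIs.

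Cluster 3 (48 and 43 cells) was led by Notch target genes. her4.1, a Hes-type repressor, stood at 489.7 and 499 CPM against 33.0 and 14.1 CPM in cluster 1, and her6 at 423 and 1041 CPM against 37.8 and 37.1 CPM. her4.2, her4.4, her9, her15.1 and her15.2 were among its 10 leading genes too. Several her genes are near-identical copies that can share reads, so the split between her15.1 and her15.2 is uncertain. The whole Notch list summed to 3976 and 6525 CPM in cluster 3, and to 1162 and 1583 CPM in cluster 2. Cluster 3 also held the highest sums of immediate early genes and of chaperone genes among the clusters, in both libraries. The immediate early list summed to 25951.5 and 20666 CPM there, against 15427 and 13222 CPM in cluster 1. The chaperone list summed to 64150 and 98112 CPM, against 47980 and 82492 CPM. The part of cell dissociation in these sums was not tested.

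Cluster 4 (28 and 23 cells) was led by pax2a and by hair cell genes, among them pcdh15a, a tip link cadherin, and cdh23, its partner. Its cells were deep, with median UMIs of 21486 and 20494. myo6b, a hair cell myosin, stood at 439 and 519 CPM there and at 8.55 and 4.42 CPM in cluster 1. atoh1a, the hair cell determination factor, stood at 113 and 267 CPM against 3.66 and 3.54 CPM. The cluster also held 6058 and 2659 CPM of liver and pancreas genes, against 206 and 305 CPM in cluster 1.

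Cluster 5 (12 and 13 cells) was led by neuron genes such as st8sia5, nrxn1a and elavl3, with elavl3 at 392 and 669 CPM, and its median UMIs were 24162 and 13943. Median doublet scores were 0.165 and 0.181 in cluster 4 and 0.172 and 0.298 in cluster 5, against 0.0545 and 0.0183 in cluster 1. Whether clusters 4 and 5 hold barcodes with more than 1 cell was not tested. Their part is given beside the hair cell and neuron genes.

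**Figure D3:**
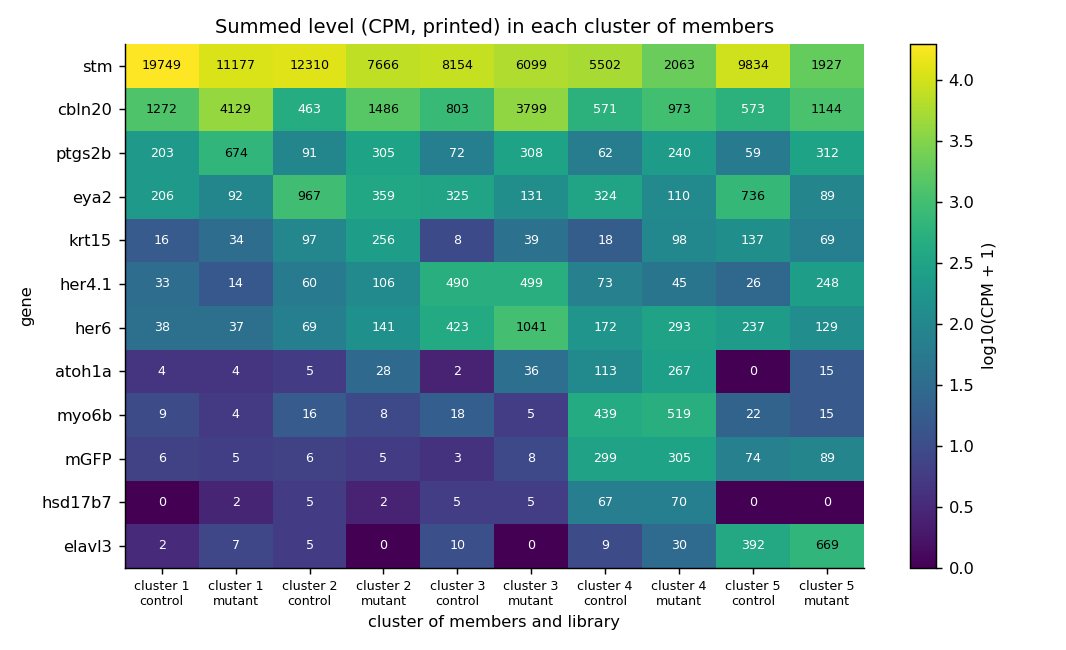
Summed level of 12 genes in the 5 clusters of irg1l/stm cells, control and mutant libraries side by side; each tile prints the CPM and its colour gives log10(CPM + 1). her4.1 and her6 are highest in cluster 3, atoh1a, myo6b, mGFP and hsd17b7 in cluster 4, and elavl3 in cluster 5, in both libraries.

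hsd17b7 itself was rare in irg1l/stm cells and lay mostly in cluster 4. It summed to 53 UMIs in the control cells and 42 in the mutant cells, or 15.52 CPM [11.6, 20.3] and 14.5 CPM [10.5, 19.6], with a log2 ratio of -0.09 [-0.71, 0.52]. Of these, 45 and 37 UMIs (84.9% and 88.1%) were in the cluster with hair cell genes, where it stood at 66.9 and 70.0 CPM. In the other clusters together it stood at 2.92 and 2.12 CPM. The level of a gene with a frameshift allele does not check the genotype labels.

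The reporter used for the sort showed the same split. mGFP summed to 234 and 191 UMIs, of which 201 and 161 (85.9% and 84.3%) were in cluster 4. The remaining irg1l/stm cells stood at 12.03 and 12.7 CPM, against 388 and 445 CPM in neurons and 144 and 279 CPM in inner ear supporting cells. mGFP had a UMI in 14.7% and 13.0% of irg1l/stm cells (5.63% and 7.79% thinned) and in 55.04% and 53.9% of neurons (35.5% and 39.39% thinned). Most irg1l/stm cells thus had no reporter UMI although the library was made from cells sorted for the reporter.

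Between the libraries, more genes were lower than higher in the mutant irg1l/stm cells. Of the 6242 genes that summed to 100 UMIs or more, 419 (6.71%) were at least 2-fold higher and 963 (15.4%) at least 2-fold lower in the mutant library, and the median log2 ratio was -0.10. With the median subtracted the counts were 569 and 847. Over the 15440 genes with 10 UMIs or more, the basis of the gene lists, 9.46% were at least 2-fold higher and 23.7% at least 2-fold lower, the median was -0.21, and 41.6% lay above 0. The medians in inner ear supporting cells (-0.20) and neurons (-0.26) of the same libraries were close to it. Without clusters 4 and 5 the counts were 393 and 843 of 4929 genes.

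The 10 highest ratios, ranked by the interval bound nearest 0, included transcription factors and a prostaglandin receptor. sox4a, a SoxC factor of differentiating progenitors, stood at 105 CPM [94.0, 116] and 672 CPM [643, 703], a log2 ratio of 2.68 [2.52, 2.85]. foxq1a, a forkhead factor, stood at 227 CPM [212, 244] and 1309 CPM [1267, 1351], a log2 ratio of 2.53 [2.41, 2.64]. ptger4a, a prostaglandin E2 receptor, stood at 6.44 and 44.3 CPM, a log2 ratio of 2.78 [2.12, 3.51]. These 3 were at least 2-fold higher in the mutant library in each of clusters 1, 2 and 3. Cells of these clusters also gave the ratios that picked the genes, so this is a description. The file lists a further entry under the symbol sox4a with 11 and 24 UMIs, and the values here are of the deeper entry.

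ptgs2b, whose enzyme makes the prostaglandin precursor, was chosen after its values were seen and stood at 106 and 438 CPM (2.04 [1.87, 2.22]). cox14, a cytochrome c oxidase assembly factor, stood at 19.3 and 106 CPM (2.45 [2.07, 2.86]), and soul5, of the SOUL heme-binding family, at 69.4 and 327 CPM (2.23 [2.03, 2.45]). The other 5 were CABZ01067232.1 (3.66), si:dkey-195m11.8 (3.74), BX649540.1 (3.16), zgc:158343 (2.35) and si:dkeyp-110c7.4 (2.35). All 10 were at least 2-fold higher in each of the 3 large clusters, and the smallest of these ratios was 1.59, for foxq1a in cluster 3. Ratios over these same cells picked the 10, so their passing in each cluster is no support. The share of all genes that pass in each cluster is not given here.

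Per cell, the foxq1a level was 0 at the lowest, 78.2 per 1000000 UMIs at the median and 3585 at the highest in the control library. In the mutant library it was 0, 1045 and 8340.3. The upper quartile was 283 in the control cells and the lower quartile 376 in the mutant cells. foxq1a was picked by its ratio in these cells, and the cells come from 1 library per genotype, so these values are a description only. foxq1a had a UMI in 60.0% and 89.4% of the cells, or 28.2% and 77.1% of cells thinned to 2000 UMIs, against 0.863% and 1.76% of neurons, or 0.263% and 0.672% thinned.

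The ratios of these genes in other cells of the same libraries varied. zgc:158343 had a log2 ratio of 2.35 [2.30, 2.39] in irg1l/stm cells, 0.25 [0.15, 0.35] in inner ear supporting cells and -0.03 in neurons. sox4a had 2.68 in irg1l/stm cells, 1.93 [1.66, 2.19] in inner ear supporting cells and 0.69 in neurons, and cox14 had 2.45, 1.78 [1.37, 2.19] and -0.01. foxq1a was rare in inner ear supporting cells, with 32 and 4 UMIs and a ratio of -1.20 [-3.17, 0.29]. BX649540.1 had 2.09 [1.46, 2.73] in inner ear supporting cells and 2.37 in neurons, so it was at least 2-fold higher there too. CABZ01067232.1 had 2.201 in neurons on 11 and 44 UMIs (0.448 and 2.06 CPM), a background level from which no direction is read. In the cells with irg1l that were left out for low stm all 10 were at least 2-fold higher. The share of all genes that pass in those cells is not given here, so this count is no support. The ratios there ran from 1.55 for cox14 to 5.59 for si:dkeyp-110c7.4. These left-out cells were not alike in both libraries, with median depths of 2984 and 8914 UMIs. si:dkey-4p15.5 had a UMI in 26.2% and 73.3% of them, and cbln20 in 17.0% and 66.4%. Some control counts were small, with 2 UMIs of BX649540.1, 2 of ptger4a and 3 of soul5. The part of this difference between the left-out cells in the ratios was not tested. With 1 library per genotype none of these differences between cell types was tested.

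The genes of the rule and the given markers also differed between the libraries, and the thresholds cut the range of the former. irg1l stood at 1591 and 3100.0 CPM (0.96 [0.91, 1.01]) and stm at 11827 and 7404 CPM (-0.68 [-0.70, -0.65]), so the genes used for the choice ran in opposite directions. si:dkey-4p15.5 (1.39 [1.36, 1.42]) and cbln20 (1.86 [1.80, 1.93]) were higher in the mutant library. In neurons, whose level was read above as free RNA, si:dkey-4p15.5 stood at 7.54 and 48.3 CPM and cbln20 at 0.978 and 8.90 CPM. The ratios there were 2.68 [2.45, 2.91] and 3.19 [2.57, 3.86], and no direction in neurons is read from them. In inner ear supporting cells si:dkey-4p15.5 and cbln20 had -0.61 [-1.75, 0.38] and 0.73 [0.27, 1.17]. In the cells left out for low stm, si:dkey-4p15.5 stood at 476 and 6648 CPM, with median depths of 2984 and 8914 UMIs. Of the 15 leading genes, si:ch211-153b23.3 (-0.33) and zgc:174917 (-0.65) were lower in the mutant library and the other 13 higher. Of the 6242 genes with 100 UMIs or more 45.0% lay above 0. The share of cells with a UMI of si:dkey-4p15.5 or cbln20 also differed between the libraries, as given above. Its part in these ratios was not tested.

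The lowest ratios were led by blood. Of the 10 lowest, 7 were globin genes, and hbae3 summed to 16741 and 1 UMIs. cahz, a carbonic anhydrase of red blood cells, had 275 and 0 UMIs, at least 77.6-fold lower in the mutant library, and si:ch211-250g4.3 had 319 and 0. The control library also had the higher globin share, and the part of that share in the ratios of cahz and si:ch211-250g4.3 was not tested. In the mutant library cahz stood at 53.8 CPM in inner ear supporting cells. si:ch211-250g4.3 stood at 14.0 CPM in neurons of that library. The remaining gene was hsp90aa1.1, a cytosolic Hsp90, at 464 CPM [441, 487] and 4.15 CPM [2.15, 7.25] (-6.80 [-7.76, -5.99]).

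**Figure D4:**
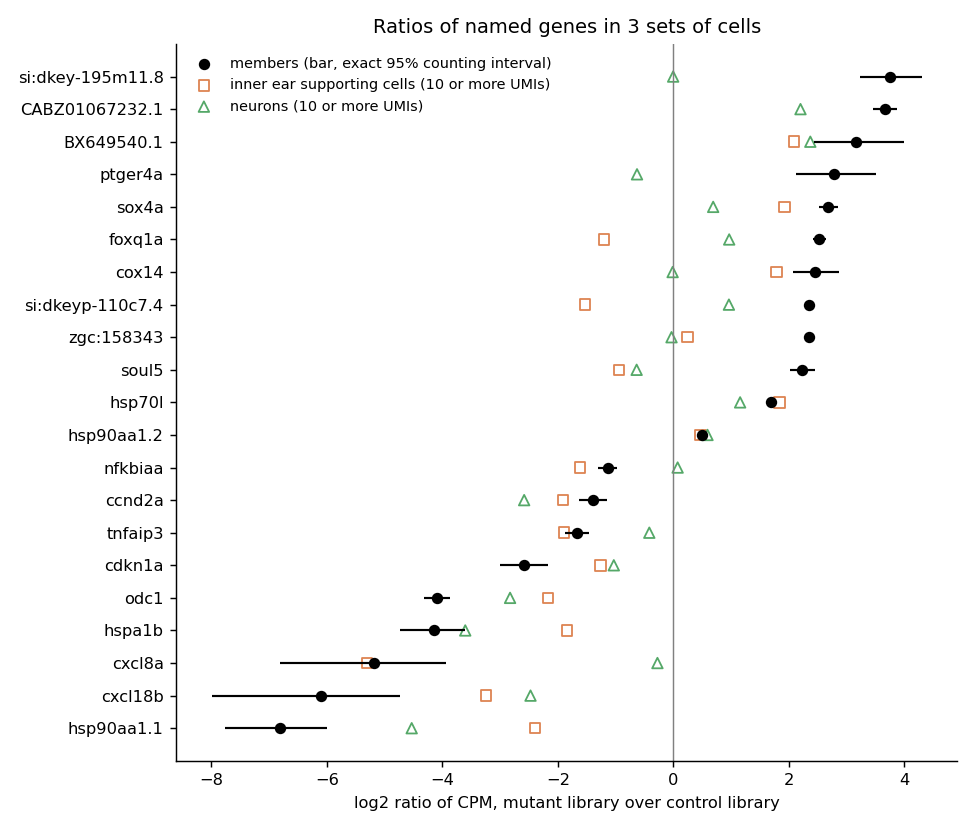
Log2 ratio of CPM (mutant library over control library) of the 10 highest genes and of 11 list genes picked after their values were seen, in irg1l/stm cells (black, bars are exact 95% counting intervals), inner ear supporting cells (squares) and neurons (triangles); a gene at 0 UMIs in a library is drawn at its bound against 3 UMIs, and sets with under 10 UMIs of a gene have no symbol. hsp70l, tnfaip3 and cxcl8a lie close together in irg1l/stm cells and inner ear supporting cells, while zgc:158343 lies at 2.35 in irg1l/stm cells and near 0 in the others.

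Heat shock genes lay on both sides of 0. The 26 chaperone genes summed to 50026 and 80079.5 CPM, yet 13 of 25 measured were above 0 and 12 below, with a median of 0.16, or -0.09 after thinning. hsp70l, an inducible Hsp70, stood at 4175 and 13475 CPM (1.69 [1.66, 1.72]), hsp70.1 at 1475 and 4576 CPM (1.63 [1.59, 1.68]) and hsp90aa1.2 at 13051 and 18406 CPM (0.50 [0.48, 0.51]). hspa1b stood at 177 and 10.0 CPM (-4.14 [-4.73, -3.60]), hspa8b at 2161 and 867 CPM (-1.32 [-1.38, -1.25]) and hsph1, an Hsp110, at 891 and 319.7 CPM (-1.48 [-1.59, -1.37]). The Hsp70 and Hsp90 genes are close copies and reads can be split between them, so single members are uncertain. Other cells of the same libraries had ratios of the same sign, with hsp70l at 1.84 in inner ear supporting cells and 1.16 in neurons, and hsp90aa1.1 at -2.40 and -4.53.

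Genes of ribosomes, respiration, protein turnover and secretion mostly lay above 0. The ribosomal protein pattern, which also takes in the rps6ka kinases, had 92 measured symbols. Of these, 82 were higher in the mutant cells (median 0.71), against 41.6% of all genes with 10 or more UMIs. Only 9 of the 92 were at least 2-fold higher, close to the 9.46% share of all those genes. The sum was 94552 and 156455 CPM. rpl39 had 1.35 [1.302, 1.40], while rpl6 had -1.099 [-1.20, -0.998] and rpl26 -1.19 [-1.40, -0.98]. Of 86 nuclear genes of oxidative phosphorylation 77 lay above 0 (median 0.72), with atp5mc1, an ATP synthase subunit, at 81.4 and 229 CPM (1.49 [1.29, 1.70]). The 13 genes of the mitochondrial genome had a median of -0.12.

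All 38 measured proteasome genes lay above 0 (median 0.76), with psmd13 at 1.41 and psma5 at 1.37. At least 2-fold higher were 7 of them, against 9.46% of all genes with 10 or more UMIs, of which 41.6% lay above 0. Of 32 genes of the endoplasmic reticulum and secretory pathway 29 lay above 0 (median 0.70), among them hspa5, the BiP chaperone, at 3563 and 6209 CPM (0.80 [0.77, 0.83]), manf at 405 and 819 CPM and ssr3, a translocon subunit, at 386 and 806 CPM. creb3l1, a transcription factor of secretory cells, stood at 61.5 and 33.2 CPM (-0.89 [-1.25, -0.53]). The medians of the ribosomal, respiratory, proteasome and secretory lists were 0.55, 0.70, 1.103 and 0.48 in inner ear supporting cells, and 0.37, 0.64, 0.19 and 0.47 in neurons, so other cells of these libraries had the same sign.

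**Figure D5:**
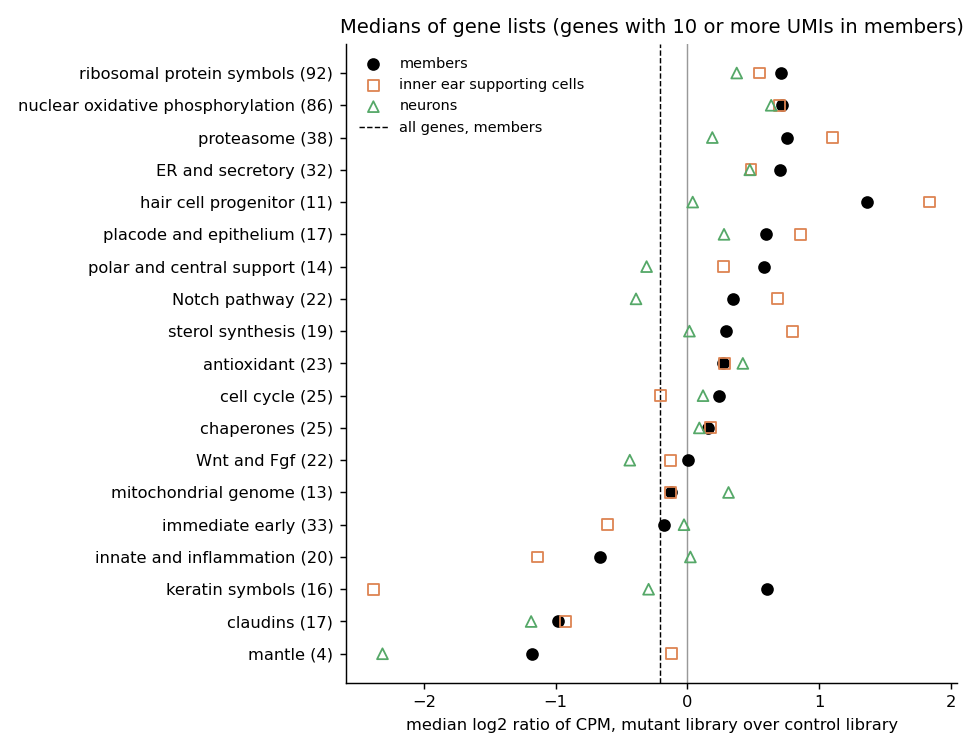
Median log2 ratio of CPM (mutant library over control library) of 19 gene lists in irg1l/stm cells (circles), inner ear supporting cells (squares) and neurons (triangles), with the number of genes measured in irg1l/stm cells in brackets; the dashed line is the median of all 15440 genes in irg1l/stm cells (-0.21). The keratin symbols lie at 0.61 in irg1l/stm cells and at -2.38 in inner ear supporting cells. They summed to 4843 and 9426 CPM in irg1l/stm cells but only to 848 and 499 CPM in inner ear supporting cells.

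Genes tied to hair cell progenitors were higher in the mutant cells. In their list sox4a counts by both of its entries. All 11 measured entries lay above 0, against 41.6% of all genes with 10 or more UMIs. At least 2-fold higher were 8 of them, against 9.46% of all those genes. The list's median was 1.37, or 1.26 without clusters 4 and 5. Besides sox4a, atoh1a stood at 24.9 and 62.3 CPM (1.32 [0.94, 1.71]), dla, a Notch ligand of nascent hair cells, at 26.6 and 66.8 CPM (1.33 [0.96, 1.70]) and insm1b, a zinc finger factor, at 14.1 and 43.6 CPM (1.63 [1.14, 2.14]). atoh1a lay mainly in cluster 4, with 76 of 85 control and 141 of 180 mutant UMIs, and it stood at 3.28 and 16.5 CPM in the other clusters. In inner ear supporting cells the list's median was 1.84, and in neurons 0.04.

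Supporting cell genes differed gene by gene. Of 14 polar and central supporting cell genes 10 lay above 0 (median 0.58). Among all genes with 10 or more UMIs 41.6% did, with a median of -0.21. slc1a3a, a glutamate transporter, stood at 403 and 999 CPM (1.31 [1.22, 1.40]), lfng, a Fringe modifier of Notch, at 226 and 448 CPM (0.99 [0.86, 1.12]) and gata2b at 12.9 and 63.3 CPM (2.30 [1.82, 2.81]). tnfsf10l3 stood at 52.1 and 39.44 CPM (-0.40 [-0.75, -0.05]). In the placodal and epithelial list 11 of 17 lay above 0 (median 0.59), with six1b, a placodal homeobox gene, at 218 and 527 CPM (1.27 [1.15, 1.40]). eya2, chosen after its values were seen, was lower in the mutant cells, at 527 and 159 CPM (-1.72 [-1.87, -1.58]). It was lower too in inner ear supporting cells (-0.99 [-1.35, -0.64]) and neurons (-1.44 [-1.71, -1.18]) of the mutant library.

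Notch, Wnt and Fgf genes were split. Of 22 measured Notch genes 13 lay above 0 and 9 below, with a median of 0.34, or -0.09 with both thresholds doubled. her15.1 stood at 70.9 and 208 CPM and her15.2 at 83.2 and 32.5 CPM, her4.1 at 129 and 122 CPM (-0.08 [-0.29, 0.12]), and the receptor gene notch2 at 33.97 and 10.7 CPM (-1.66 [-2.28, -1.08]). In inner ear supporting cells her4.1 had a ratio of 2.22. The Wnt and Fgf list had 11 genes above and 11 below 0. The ligand gene fgf3 stood at 15.52 and 50.2 CPM (1.69 [1.23, 2.17]) and the Fgf target etv4 at 50.1 and 121 CPM (1.27 [1.01, 1.55]), while the receptor gene fgfr2 (-1.79 [-2.33, -1.29]) and the feedback inhibitor spry4 (-1.17 [-1.40, -0.94]) were lower in the mutant cells.

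Cell cycle genes gave no common direction, with 17 of 25 above 0 and a median of 0.24, or -0.46 after thinning. cdkn1a, the p21 inhibitor, stood at 118 and 19.7 CPM (-2.58 [-3.00, -2.17]) and ccnd2a, a D cyclin, at 177 and 67.8 CPM (-1.39 [-1.63, -1.15]). cdkn1bb, a p27 gene, stood at 929.7 and 823 CPM. mki67, a marker of dividing cells, stood at 12.3 and 12.8 CPM (0.06 [-0.62, 0.73]), an interval that includes 0.

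Inflammatory genes were mostly lower in the mutant cells. Of 20 measured innate and inflammatory genes 15 lay below 0, with a median of -0.66. Over all genes with 10 or more UMIs the median was -0.21, and 41.6% lay above 0. At least 2-fold lower were 8 of the 20, against 23.7% of all those genes. The chemokine genes cxcl8a, at 214 and 5 UMIs, and cxcl18b, at 325 and 4 UMIs, had ratios of -5.18 [-6.82, -3.93] and -6.10 [-7.99, -4.73]. The NF-kB feedback genes tnfaip3, at 261 and 82.7 CPM (-1.66 [-1.87, -1.45]), and nfkbiaa, at 316 and 144 CPM (-1.14 [-1.302, -0.97]), the subunit gene nfkb1 (-1.09 [-1.42, -0.77]) and the cytokine gene tnfb (-1.42 [-1.74, -1.11]) were lower too. The rule gene irg1l, which is on this list, was not.

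Inner ear supporting cells had -1.89 for tnfaip3, -1.61 for nfkbiaa and -5.30 for cxcl8a, and neurons had -0.42, 0.07 and -0.28. Among immediate early genes 21 of 33 lay below 0 (median -0.18, against -0.21 over all genes with 10 or more UMIs) and 7 were at least 2-fold lower, against 23.7% of those genes, so the list lay close to all genes. It held fosab at 1352 and 683 CPM (-0.99 [-1.06, -0.91]), egr1 at 333 and 112 CPM (-1.57 [-1.75, -1.39]) and egr3 at 92.8 and 20.1 CPM, while mych, a Myc relative, stood at 177 and 337 CPM (0.93 [0.78, 1.08]). Dissociation is known to induce heat shock and immediate early genes, and its part here was not tested.

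odc1, ornithine decarboxylase, the entry enzyme of polyamine synthesis, was far lower in the mutant cells. It stood at 1053 CPM [1019, 1088] and 61.9 CPM [53.2, 71.7] (-4.09 [-4.31, -3.87]). Per cell, the lowest, median and highest values were 0, 746 and 5138 per 1000000 UMIs in the control library and 0, 0 and 1220.3 in the mutant library, so most mutant cells had no odc1 UMI. It had a UMI in 85.3% and 43.7% of the cells, or 71.4% and 11.3% thinned to 2000 UMIs, and in 33.6% and 7.23% of neurons, or 14.7% and 2.26% thinned. The antizyme genes oaz1a, at 528 and 1081 CPM, and oaz1b, at 226 and 413 CPM, whose proteins target Odc1 for breakdown, were higher in the mutant cells. The other polyamine genes with 50 UMIs or more ran from -0.91 (sat1a.1) to 1.45 (sms). odc1 had ratios of -2.17 in inner ear supporting cells and -2.83 in neurons.

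Sterol genes, the pathway of the mutated enzyme, showed mixed differences at low levels. Of 19 measured genes of sterol synthesis 11 lay above 0 and 8 below, with a median of 0.29, or 0.00 without clusters 4 and 5. Of all genes with 10 or more UMIs 41.6% lay above 0, with a median of -0.21. At least 2-fold higher were 6 of the 19, against 9.46% of all those genes. Only 1 was at least 2-fold lower, against 23.7%. The list's median was 0.80 in inner ear supporting cells and 0.02 in neurons. In irg1l/stm cells the list summed to 228 and 296 CPM. msmo1, a sterol C4 demethylase, stood at 35.43 and 83.0 CPM (1.23 [0.91, 1.56]) and dhcr7, the last reductase of the pathway, at 6.15 and 14.5 CPM (1.24 [0.45, 2.07]). The early enzymes hmgcra (-0.38 [-1.15, 0.37]) and hmgcs1 (-0.30 [-0.78, 0.18]) had intervals that include 0. Of the regulators, insig1 stood at 29.6 and 62.6 CPM (1.08 [0.72, 1.45]) and srebf1 at 22.5 and 6.23 CPM (-1.86 [-2.68, -1.102]).

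Of 8 sterol efflux genes 4 lay above and 4 below 0. The cholesterol exporter genes abca1a, at 231 and 81.3 CPM (-1.505 [-1.72, -1.29]), and abcg1, at 31.0 and 6.57 CPM (-2.24 [-3.03, -1.53]), were among the lower ones. abca1a had -1.35 in inner ear supporting cells and -1.13 in neurons. apoa1b, an apolipoprotein gene of the same list, had 54.4% of its control and 51.9% of its mutant UMIs in 1 cell each.

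The medians of the keratin and claudin genes lay on opposite sides of 0. krt18b stood at 1376 and 3592 CPM (1.38 [1.33, 1.43]) and krt8, its partner in simple epithelia, at 960.4 and 1905 CPM (0.99 [0.93, 1.05]). Of 16 measured keratin symbols, which also take in krtcap2, 10 lay above 0 (median 0.61). At least 2-fold higher were 2 of the 16, against 9.46% of all genes with 10 or more UMIs. At least 2-fold lower were 4 of the 16, against 23.7%. Among claudins 12 of 17 lay below 0 (median -0.99, against -0.21 over all genes with 10 or more UMIs). Of all those genes 41.6% lay above 0. Of the claudins, cldn7b stood at 959.6 and 484 CPM (-0.99 [-1.08, -0.90]), while cldnb had 0.03 [-0.02, 0.08]. The gap junction genes cx43.4, at 147 and 290.3 CPM (0.98 [0.82, 1.15]), and cx35.4, at 100.4 and 204 CPM (1.02 [0.83, 1.22]), were higher in the mutant cells, and had -0.01 and 0.12 in inner ear supporting cells. Of 23 antioxidant genes 17 lay above 0 (median 0.27), with nqo1, a quinone reductase, at 70.0 and 179 CPM (1.35 [1.13, 1.58]) and prdx5, a peroxiredoxin, at 27.53 and 73.3 CPM (1.41 [1.06, 1.78]).

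Hair cell and neuron genes depended on the clusters that carried them. The 30 measured hair cell entries, from 29 listed symbols, had a median of 0.06, and -1.22 without clusters 4 and 5. s100t, a calcium-binding protein of hair cells, stood at 2894 and 1093 CPM, with 88.0% of its control and 93.9% of its mutant UMIs in cluster 4, and at 432 and 81.3 CPM in the other clusters. pvalb9 stood at 17.6 and 269 CPM, with 28.5% of its mutant UMIs in 1 cell. The 13 measured neuron genes had a median of 0.59, which was -0.17 without clusters 4 and 5.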

How the data were processed

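The deposited matrices hold UMI counts per gene and barcode, made by the authors with Cell Ranger (control library 7.1.0, mutant library 9.0.1, per the file headers) on GRCz11, per the submitters' processing notes. Genes were joined by ID, so a symbol with several entries counts once per entry in the gene lists. Barcodes under 500 genes or over 20% mitochondrial UMIs were dropped. Counts were summed over cells per library and given per 1000000 UMIs (CPM). Intervals are exact Poisson (levels), conditional binomial (ratios) and Clopper-Pearson (shares) at 95%, for counting error only. A gene at 0 was set against 3 UMIs. With 1 library per genotype no test was run. Clusters came from scanpy 1.11.5 and leidenalg 0.10.2 (1500 variable genes, 20 components, 15 neighbours, resolution 0.5, 0 as seed). The ratio and interval functions were tested on simulated data.

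Genes were named by a rule: the genes of the cell choice, given markers, hsd17b7 and reporters; the 15 leading genes with at least 50 UMIs in each library; the 10 highest and 10 lowest ratios by interval bound among genes with 100 UMIs, leaving out genes with over 25% of UMIs in 1 cell; leading genes of clusters; and list genes with at least 50 UMIs. Other genes are said to be chosen after their values were seen. The members and the 39 lists were chosen with earlier results of these data known. The methods state that the sort gated out doublets. Scrublet marked 0 control and 1 mutant cell, so it had not worked here and no cell was removed. The gate for lateral line hair cells held 60 control cells but 40 mutant cells, the latter under the minimum of 50, so the libraries were not compared on it. Neither it nor the skin gate (whose mutant cells held irg1l) was used. Alternatives varied thresholds, filters, globin, depth, weighting and scaling.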

Additional observations from a re-analysis of the deposited data

Results flagged for a closer look

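soul5, of the SOUL heme-binding family, was higher in the mutant library in irg1l/stm cells (log2 ratio 2.23 [2.03, 2.45], 237 and 944 UMIs) while inner ear supporting cells of the same libraries held 20 and 0 UMIs, a bound of -0.94 against 3 UMIs. The control level of soul5 in inner ear supporting cells, 5.63 CPM, was close to that in neurons, 4.07 CPM, so it is read as background and no direction is read from it. The difference between the cell types was not tested.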

How the results depend on the processing

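The share of irg1l/stm cells moved with the rule and the denominator. With both thresholds doubled it was 1.04% (control) and 2.54% (mutant), with both halved 1.75% and 3.39%, among barcodes under 10% globin 2.16% and 3.05%, and without clusters 4 and 5 1.18% and 2.62%. The share was higher in the mutant library under each of these settings. All of them still choose cells by irg1l, which stood higher in the mutant library in irg1l/stm cells (log2 ratio 0.96). In neurons irg1l had a ratio of 0.75 at only 7.25 and 12.2 CPM. The part of irg1l's own level in the share was not tested. Thinning to 2000 UMIs gave 777 higher and 1251 lower genes, by 2-fold or more, of 6242. A minimum of 30 UMIs gave 871 higher and 2069 lower genes of 10954, and a minimum of 300 UMIs gave 213 and 398 of 2915, where fewer genes are tested. The median of the skin list turned from -1.08 to 0.27 after thinning and 0.68 with a minimum of 50 UMIs, that of the glia list from -0.54 to 0.018 with thresholds doubled, 0.032 after thinning and 0.11 with that minimum, and that of the neuron list from 0.59 to -0.17 without clusters 4 and 5, and the cause was not tested. No paired analysis was possible because each genotype has 1 library. Doublet removal by Scrublet gave no values because it marked 0 of the irg1l/stm cells. Leaving out clusters 4 and 5, and members over 1% globin, was chosen after seeing the data. Genes under about 10 UMIs could not be compared at this depth.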
